A study of Mus musculus with 4 samples.

Results

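The Hox genes are the homeobox transcription factor genes that lie in the 4 clusters HoxA, HoxB, HoxC and HoxD. All protein-coding genes whose mouse symbol is Hoxa, Hoxb, Hoxc or Hoxd followed by a number alone were taken, which gave 39 of the 56748 genes in the count table. HoxA, on chromosome 6, holds 11 of them, HoxB, on chromosome 11, holds 10, HoxC, on chromosome 15, holds 9, and HoxD, on chromosome 2, holds 9. By paralog number, 12 are anterior (numbers 1 to 4), 11 are central (5 to 8) and 16 are posterior (9 to 13).

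The study sequenced bulk RNA from cultured prostate cells that the labels call fibroblasts, with 1 library for each of 4 conditions. The donors were male mice of 8 to 10 weeks, of a strain that the protocol spells C57BL/6 and the genotype label CB57BL/6. The 4 libraries are irradiated BuOE, irradiated PBS, BuOE and PBS. Irradiated mice received 37.5 Gy to the pelvis behind lead shielding, as 7.5 Gy fractions over 5 days at 1.2 Gy per minute. PBS is phosphate-buffered saline, and BuOE is part of the chemical name of the manganese porphyrin in the series title, a title about treating fibrosis some weeks past irradiation. The labels do not say how much BuOE was given or when, nor whether mice or cultures received it, nor how many mice a culture came from. Cells of all 4 libraries grew out of collagenase-digested prostate in medium with serum.

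The deposited counts summed to between 24996835 and 35915448 per library, of which Hox genes took between 7047 and 9924. Mitochondrially encoded genes held 2.65% of counts in the irradiated BuOE library and between 0.413% and 0.883% in the other 3. All 10 fibroblast markers on the list (Col1a1, Pdgfra, Dcn and others) were detected in every library, with a summed level of 7531 CPM (counts scaled to a common library total) in the irradiated BuOE library, 11496 in irradiated PBS, 8124 in BuOE and 9496 in PBS. All 10 epithelial markers (Epcam, Krt8, Krt5 and others) were detected as well, with sums of 6107, 3757, 5526 and 4438 CPM in the same order of libraries, so RNA of epithelial genes was present beside that of fibroblast genes. In bulk RNA, fewer cells of a type and less RNA per cell cannot be told apart.

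Hox proteins bind DNA through a homeodomain and give cells a record of their place along the body axis. Genes lie in their cluster in the order in which they act along the embryo, with low paralog numbers towards the head and high numbers towards the tail and the genital region, an arrangement called collinearity. Adult fibroblasts keep much of the Hox pattern of the site they came from, and the posterior genes Hoxa13, Hoxb13 and Hoxd13 take part in the development of the mouse prostate.

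The data held a posterior Hox pattern in all 4 libraries. To compare genes with one another, levels were divided by exon length and are CPM per kb. The 3 highest levels per kb were Hoxd13, Hoxa11 and Hoxb9 in the irradiated BuOE library, Hoxa11, Hoxd13 and Hoxa10 in irradiated PBS, Hoxd13, Hoxa11 and Hoxa13 in BuOE, and Hoxa11, Hoxd13 and Hoxa10 in PBS. Posterior genes held 71.3% of all Hox counts in the irradiated BuOE library, 64.7% in irradiated PBS, 66.7% in BuOE and 67.7% in PBS. Central genes held 16.66%, 22.93%, 21.96% and 20.89% in the same order, and anterior genes 12.0%, 12.3%, 11.3% and 11.4%. The anterior share was thus alike in the 4 libraries, while the irradiated BuOE library had the highest posterior and the lowest central share.

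**Figure D1:**
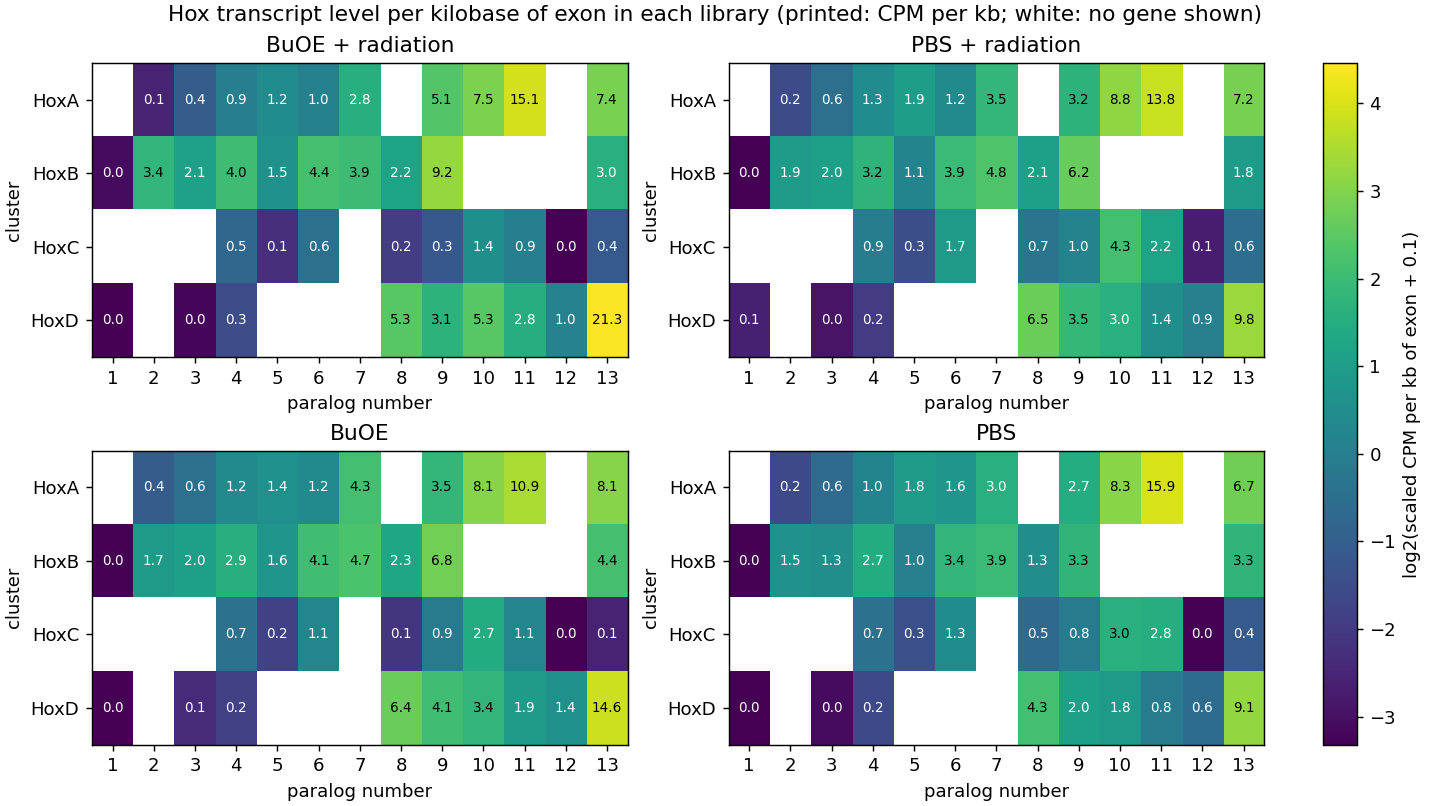
Level of Hox genes per kilobase of exon in the 4 libraries, with clusters as rows and paralog numbers as columns; colour is log2(CPM per kb + 0.1), the printed value is CPM per kb, and white squares show no gene. In each library Hoxd13 and Hoxa11 are the brightest squares, the HoxC row is darker than the other 3, and Hoxd13 is brightest in the irradiated BuOE library.

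Spearman's rho between paralog number and level per kb over the 39 genes was 0.45 in the irradiated BuOE library and 0.48 in each of irradiated PBS, BuOE and PBS. Within the 11 HoxA genes rho lay between 0.93 and 0.95. Within the 9 HoxD genes it lay between 0.65 and 0.68. The 10 HoxB genes gave 0.44 in irradiated BuOE, 0.47 in irradiated PBS, 0.79 in BuOE and 0.55 in PBS, and the 9 HoxC genes gave values between -0.22 and 0.017. These values describe genes within a library, which share its depth and the annotated exon lengths, and genes are not independent replicates. HoxA was therefore ordered by position in all 4 libraries, and HoxC was not in any.

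A few Hox genes, most of them anterior, were at or near the limit of detection. A count of 3 was taken as the floor, and a gene at or under it in any library was given no highest over lowest level. It equals 0.127 CPM in the irradiated BuOE library, 0.0829 in irradiated PBS, 0.0987 in BuOE and 0.101 in PBS. Hoxb1, which patterns the hindbrain, had 1 read in the irradiated BuOE library and none in the other 3. Hoxd1 had 4 reads in irradiated PBS and none elsewhere, and Hoxc12 had 2 reads in irradiated PBS and none elsewhere. Hoxd3 had 1, 5, 12 and 2 reads in irradiated BuOE, irradiated PBS, BuOE and PBS, and it shares 62.3% of its exon length with other genes on the same strand, as Hoxd4 does for 52.3%, so their reads may be split. Including Hoxa2, Hoxc5, Hoxc13 and Hoxd4, 8 Hox genes averaged under 1 CPM. The other 31 passed that filter and are the ones compared between libraries with ratios, beside 14366 genes of all kinds that passed it.

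HoxA supplied more reads than any other cluster. Its summed level was 122 CPM in the irradiated BuOE library, 118 in irradiated PBS, 114 in BuOE and 116 in PBS, so the 4 libraries lay close together. Hoxa11, which acts in the limb, kidney and reproductive tract, had 34.6 CPM in irradiated BuOE, 31.5 in irradiated PBS, 24.9 in BuOE and 36.3 in PBS, so the BuOE library was the lowest. Its exons overlap the antisense RNA Hoxa11os over 35.0% of their length, and without a stated strand setting the reads of the pair cannot be told apart. Hoxa10, which takes part in seminal vesicle and prostate development, had 24.6, 28.8, 26.6 and 27.3 CPM in irradiated BuOE, irradiated PBS, BuOE and PBS. Hoxa13, needed for the genital tubercle and the urogenital outlet, had 18.2, 17.9, 20.1 and 16.7 CPM in that order. Both varied little, with a highest over lowest level of 1.17 for Hoxa10 and 1.21 for Hoxa13. Hoxa9, best known from blood stem cells, stood apart in the cluster with 28.2 CPM in irradiated BuOE, against 17.6, 19.3 and 15.3 in irradiated PBS, BuOE and PBS.

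HoxB had summed levels of 85.7 CPM in the irradiated BuOE library, 66.5 in irradiated PBS, 75.0 in BuOE and 52.4 in PBS. Its most abundant member was Hoxb9, a thoracic patterning gene, at 23.7, 15.9, 17.6 and 8.49 CPM in the same order. Hoxb4, known for expanding blood stem cells, had 10.2, 8.32, 7.40 and 6.84 CPM. In both genes the irradiated BuOE library was the highest and PBS the lowest. Hoxb13, the HoxB gene of prostate luminal epithelium, ran differently, with 6.61 CPM in irradiated BuOE, 4.01 in irradiated PBS, 9.64 in BuOE and 7.38 in PBS. Each irradiated library thus had less Hoxb13 than the unirradiated library of its arm.

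HoxC was the least expressed cluster. Its 9 genes summed to 9.75 CPM in the irradiated BuOE library, 25.8 in irradiated PBS, 14.7 in BuOE and 21.4 in PBS. That was 3.1% of Hox counts in irradiated BuOE (95% exact binomial interval 2.7% to 3.5%), 9.4% in irradiated PBS (8.8% to 10.0%), 5.2% in BuOE (4.7% to 5.7%) and 9.0% in PBS (8.4% to 9.7%). Both BuOE libraries were below both PBS libraries. Its main members were Hoxc10 (ENSMUSG00000022484), a lumbar and hindlimb gene, with 2.63, 8.18, 5.10 and 5.73 CPM in irradiated BuOE, irradiated PBS, BuOE and PBS, and Hoxc11, with 1.82, 4.39, 2.20 and 5.59 CPM. Hoxc13, a gene of hair and nail keratin, did not pass the filter and had 21, 53, 5 and 26 reads in the same order.

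HoxD had summed levels of 98.7 CPM in the irradiated BuOE library, 63.9 in irradiated PBS, 81.0 in BuOE and 47.7 in PBS, which ranks the libraries as HoxB does. Hoxd13 (ENSMUSG00000001819), the last gene of the cluster, which shapes digits, genitalia and prostate, had 52.8 CPM in irradiated BuOE, 24.3 in irradiated PBS, 36.3 in BuOE and 22.7 in PBS. Hoxd8 had 14.5, 17.9, 17.5 and 11.9 CPM in that order. The ends of the expressed part of HoxD therefore differed: at Hoxd13 both BuOE libraries were above both PBS libraries, and at Hoxd8 irradiated BuOE lay below irradiated PBS.

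**Figure D2:**
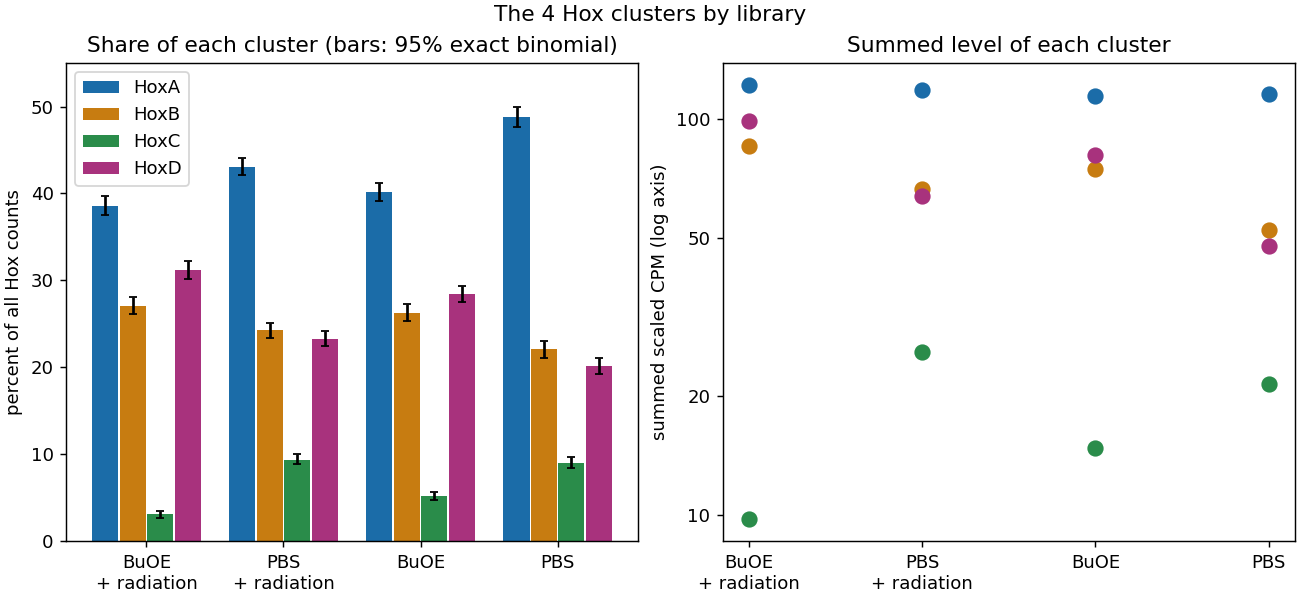
Left, share of all Hox counts held by each cluster in each library, with 95% exact binomial intervals; right, summed level of each cluster in CPM on a log axis. HoxC holds 3.1% of Hox counts in the irradiated BuOE library and HoxD 31.2%, while the HoxA sum lies between 114 and 122 CPM in all 4.

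Intervals of shares, levels and ratios cover counting error only. Reads without molecular identifiers are not independent molecules, and with 1 library per condition there is no replicate check of any difference, so each ratio compares libraries and carries no p-value. Each library enters more than 1 comparison, and ratios that share a library are not independent. A gene is called here when it is at least 2-fold higher or lower. Log2 ratios were computed with 2 counts added, and the median over all genes tested lay between -0.0078 and 0.012 in the 4 comparisons.

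The first comparison asks what pelvic radiation without the compound did to the Hox pattern, as irradiated PBS over PBS. No Hox gene that passed the filter was 2-fold higher or lower, where 5.55% of all 14366 genes passed 2-fold upwards and 1.02% downwards. The median log2 ratio of the 31 genes was 0.28, and the summed level was 274 CPM in irradiated PBS against 237 CPM in PBS. HoxD lay highest, with a median of 0.70 over its 6 genes that passed and a log2 ratio of its sum of 0.42 (0.32 to 0.52), which was 0.66 without Hoxd13. HoxA lay lowest, with a median of 0.095 over 10 genes. HoxB had a median of 0.32 over 9 genes and HoxC one of 0.37 over 6.

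The highest ratios of single genes in that comparison were those of Hoxb9 and Hoxd9, both of paralog group 9. Hoxb9 had 15.9 CPM in irradiated PBS and 8.49 in PBS, a log2 ratio of 0.90 (95% counting interval 0.69 to 1.12). Hoxd9 had 7.54 CPM in irradiated PBS and 4.31 in PBS, a log2 ratio of 0.80 (0.50 to 1.12). All 4 genes of group 9 were higher in irradiated PBS, and their sum was 43.5 CPM there against 30.1 CPM in PBS. The interval of Hoxc9, -0.23 to 0.75, includes 0. This direction was not particular to group 9, since 26 of the 31 Hox genes had ratios above 0. All 3 genes of group 8 did, and the log2 ratio of its sum was 0.58, against 0.53 for group 9. The lowest ratios were those of Hoxb13, at -0.87 (-1.19 to -0.57), and Hoxa6, at -0.37 (-1.07 to 0.28), with 4.01 and 1.05 CPM in irradiated PBS against 7.38 and 1.38 CPM in PBS. The interval of Hoxa6 includes 0. Group 13 as a whole was level, at 47.6 CPM in each of irradiated PBS and PBS.

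The second comparison asks the same within the compound's arm, as irradiated BuOE over BuOE. There 1 of the 31 genes was at least 2-fold lower and 0 were 2-fold higher, where 4.68% of all genes were lower and 2.56% higher to that degree. The median log2 ratio of the 31 was -0.15. The sum of all 39 Hox genes went the other way, at 316 CPM in irradiated BuOE against 285 CPM in BuOE. Its log2 ratio was 0.15 (0.10 to 0.19). The gene 2-fold lower was Hoxc9, which restrains limb motor neuron identity in the thoracic cord, with 0.805 CPM in irradiated BuOE and 2.07 in BuOE, a log2 ratio of -1.29 (-2.19 to -0.60). Hoxc10 came next, with 2.63 CPM in irradiated BuOE and 5.10 in BuOE and a log2 ratio of -0.94 (-1.41 to -0.52). Summed HoxC was lower in irradiated BuOE, with a log2 ratio of -0.60 (-0.83 to -0.36). Both genes rest on few reads, 19 and 62 in the irradiated BuOE library.

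At the other end, Hoxb2, a gene of the hindbrain and its facial motor neurons, had 11.8 CPM in irradiated BuOE and 6.09 in BuOE, a log2 ratio of 0.95 (0.68 to 1.23). Its exons overlap an antisense RNA over 27.3% of their length. Hoxd10, which takes part in hindlimb innervation, had 9.58 CPM in irradiated BuOE and 6.12 in BuOE, a log2 ratio of 0.64 (0.36 to 0.94). In HoxD and HoxA the ratio of the sum moved close to 0 without the largest member. HoxD had a log2 ratio of its sum of 0.28, which was 0.04 without Hoxd13, and HoxA had 0.09, which was -0.04 without Hoxa11, while the HoxC ratio was -0.44 without Hoxc10. Central genes as a group were lower in irradiated BuOE, at 52.6 CPM against 62.6 CPM in BuOE.

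The third comparison sets BuOE against PBS in unirradiated mice. Among the 31 genes, 4 were higher by 2-fold or more and 2 were lower, where 8.93% of all genes were higher and 4.13% lower to that degree. Of the 4 that were higher, 3 lay in posterior HoxD and 1 in HoxB, and both lower genes lay in HoxC. The median log2 ratio of the 31 was 0.26. All 6 HoxD genes that passed were higher in BuOE with counting intervals above 0, between 0.55 for Hoxd8 and 1.24 for Hoxd12. All 9 HoxB genes that passed had ratios above 0, of which 5 had intervals above 0. Of all genes, 35% had an interval above 0.

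Hoxd12, a distal limb gene, had 3.52 CPM in BuOE and 1.45 in PBS, a log2 ratio of 1.24 (0.76 to 1.83). Hoxd11, which patterns the forearm and kidney, had 7.93 CPM in BuOE and 3.47 in PBS, a log2 ratio of 1.18 (0.85 to 1.54). Hoxb9 had 1.05 (0.83 to 1.27) and Hoxd9 had 1.00 (0.71 to 1.33), the last of them at the 2-fold line. Hoxd13 itself, with 36.3 CPM in BuOE and 22.7 in PBS, had a log2 ratio of 0.68 (0.54 to 0.82). The higher level in BuOE thus ran along HoxD from Hoxd8 onwards and was not limited to its last gene. PBS, the library shared with the first comparison, had the lowest level of each HoxD gene that passed. In irradiated PBS over PBS the same 6 genes also had ratios above 0, from 0.10 for Hoxd13 to 0.80 for Hoxd9. The rises over PBS in both comparisons are therefore not independent.

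Hoxc8, a thoracic and forelimb gene, had 0.362 CPM in BuOE and 1.52 in PBS, from 11 and 45 reads, a log2 ratio of -1.88 (-3.17 to -1.09). Hoxc11 had 2.20 CPM in BuOE and 5.59 in PBS, a log2 ratio of -1.32 (-1.78 to -0.93). Hoxc8 averaged 1.08 CPM over the 4 libraries and passed the filter only through the PBS libraries, so its 2-fold call rests on the libraries where it was high, and without it 1 Hox gene was 2-fold lower. Of the other 4 HoxC genes that passed, Hoxc6 had -0.27, Hoxc10 -0.17, Hoxc4 -0.0062 and Hoxc9 0.012, each with an interval that includes 0. Hoxc13, under the filter, had 5 reads in BuOE and 26 in PBS, a log2 ratio of -2.03 (-4.15 to -1.01). The HoxC sum had a log2 ratio of -0.54 (-0.72 to -0.36), with 14.7 CPM in BuOE and 21.4 in PBS. Hoxa11 also was lower in BuOE, at 24.9 CPM against 36.3 CPM in PBS, a log2 ratio of -0.54 (-0.68 to -0.41), while the HoxA sums were 114 CPM in BuOE and 116 CPM in PBS.

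**Figure D3:**
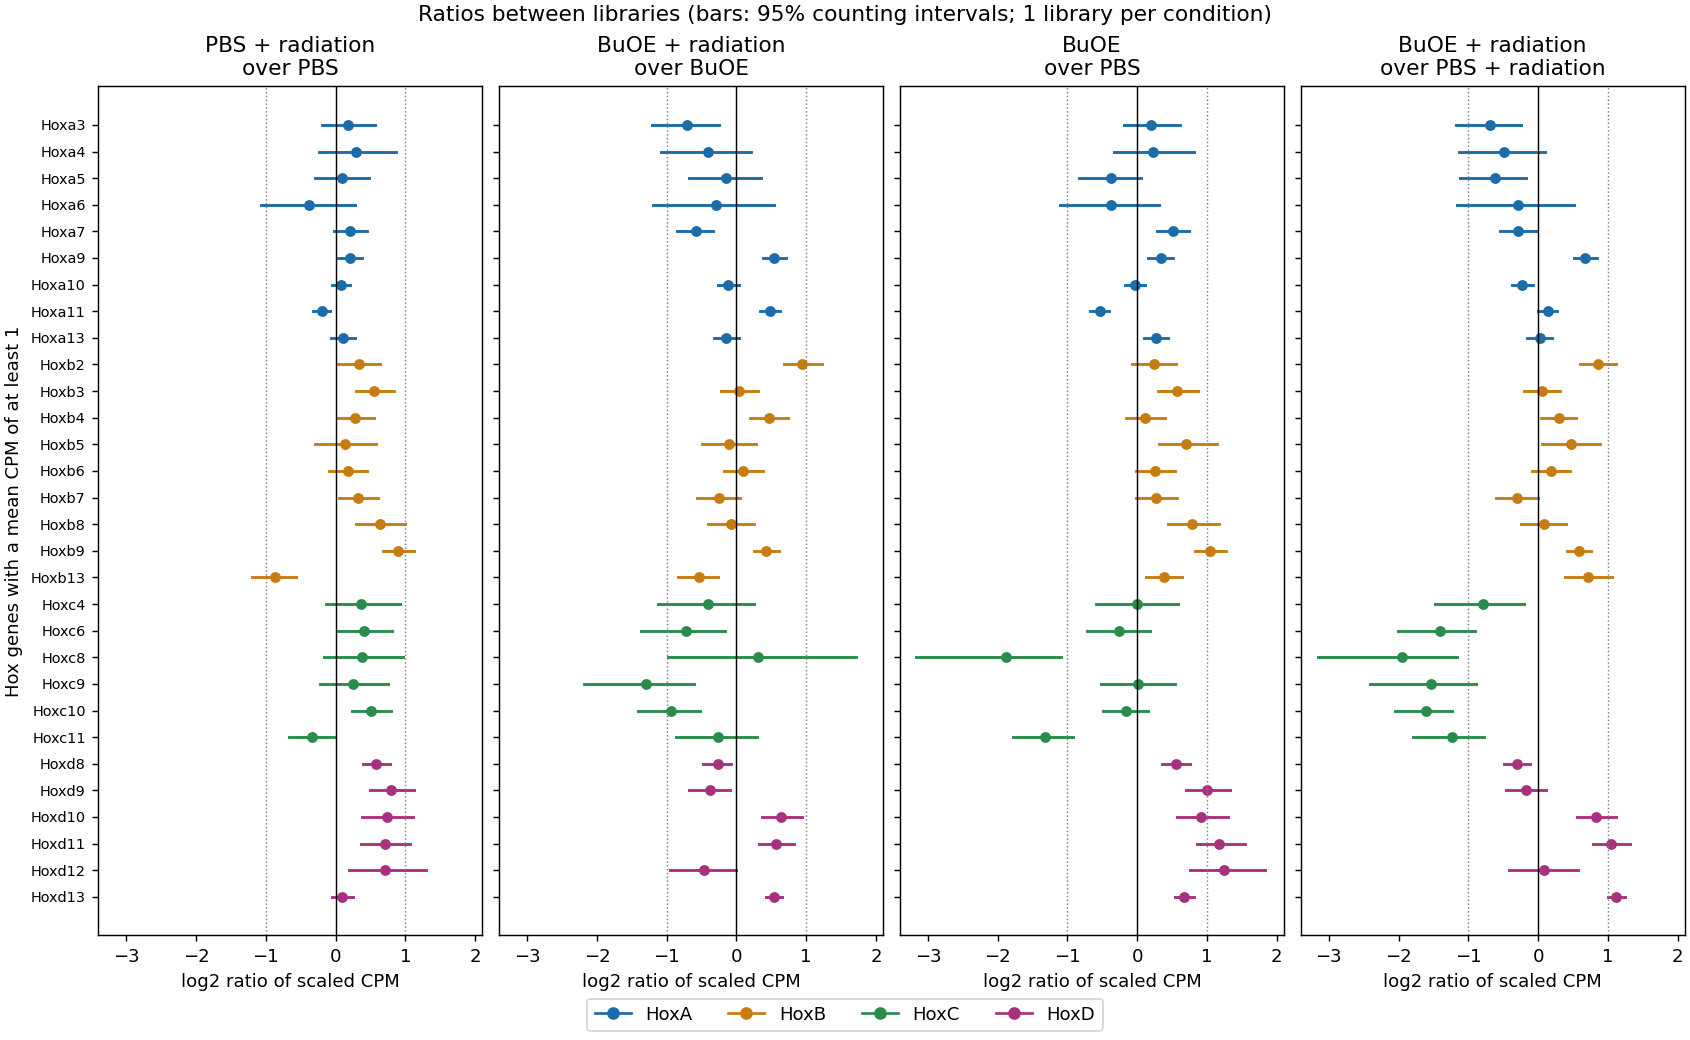
Log2 ratio of Hox genes with a mean CPM of at least 1 in the 4 comparisons; bars are 95% counting intervals, colours mark the cluster and dotted lines mark 2-fold. In the right-hand panel all 6 HoxC genes lie left of 0 and Hoxd10, Hoxd11 and Hoxd13 lie at 0.83 and above.

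The fourth comparison sets irradiated BuOE against irradiated PBS, the contrast nearest to the question in the series title. Among the 31 genes, 5 were lower by 2-fold or more and 2 were higher, where 5.31% of all genes were lower and 4.47% higher to that degree. All 5 lower genes lay in HoxC, and both higher genes lay in posterior HoxD. Summed HoxC was 9.75 CPM in irradiated BuOE against 25.8 CPM in irradiated PBS, a log2 ratio of -1.40 (-1.62 to -1.19). Summed HoxD was 98.7 CPM in irradiated BuOE against 63.9 CPM in irradiated PBS, a log2 ratio of 0.63 (0.54 to 0.71), which was 0.21 without Hoxd13. The median log2 ratio of the 31 genes was -0.17. The sum of all 39 Hox genes went the other way, at 316 CPM in irradiated BuOE against 274 CPM in irradiated PBS. Its log2 ratio was 0.21 (0.16 to 0.25).

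Each of the 6 HoxC genes that passed had an interval below 0, as did 34.6% of all genes. Hoxc8 had 0.466 CPM in irradiated BuOE and 1.99 in irradiated PBS, from 11 and 72 reads, a log2 ratio of -1.95 (-3.16 to -1.17). It passed the filter only through the PBS libraries, and without it 4 HoxC genes were 2-fold lower. Hoxc10 had 2.63 CPM in irradiated BuOE and 8.18 in irradiated PBS, a log2 ratio of -1.61 (-2.06 to -1.24). Hoxc9 had -1.53 (-2.41 to -0.88), Hoxc6 had -1.40 (-2.01 to -0.91), Hoxc11 had -1.24 (-1.79 to -0.77) and Hoxc4, the most anterior, had -0.78 (-1.47 to -0.20). The 3 HoxC genes that did not pass were low in both libraries: Hoxc5 had 8 reads in irradiated BuOE and 30 in irradiated PBS, Hoxc13 had 21 and 53, and Hoxc12 had 0 and 2.

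In HoxD, Hoxd13 had 52.8 CPM in irradiated BuOE and 24.3 in irradiated PBS, a log2 ratio of 1.12 (0.99 to 1.25). Hoxd11 had 11.8 CPM in irradiated BuOE and 5.69 in irradiated PBS, a log2 ratio of 1.04 (0.79 to 1.32). Hoxd10 followed with 0.83 (0.55 to 1.12). Hoxd12, which lies between Hoxd11 and Hoxd13, had 0.079 (-0.42 to 0.57), and Hoxd8 had -0.30 (-0.50 to -0.11), so the difference was not shared by the whole of HoxD. Hoxd11 stood under 2-fold when libraries were scaled by their totals alone or by their upper quartiles.

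HoxA and HoxB had no 2-fold member in that comparison. Hoxa9 had the highest HoxA ratio, 0.68 (0.52 to 0.84), with 28.2 CPM in irradiated BuOE and 17.6 in irradiated PBS. Hoxb2 had 0.85 (0.60 to 1.12), and Hoxb13 had 0.71 (0.39 to 1.06), with 6.61 CPM in irradiated BuOE and 4.01 in irradiated PBS. The front of HoxA was lower in irradiated BuOE. Its 4 anterior genes summed to 5.04 CPM in irradiated BuOE and 7.63 in irradiated PBS, and its 3 central genes to 11.4 CPM and 14.6 CPM. Hoxa5, needed for the lung and airway, was the lowest of the central genes at -0.62 (-1.12 to -0.17).

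**Figure D4:**
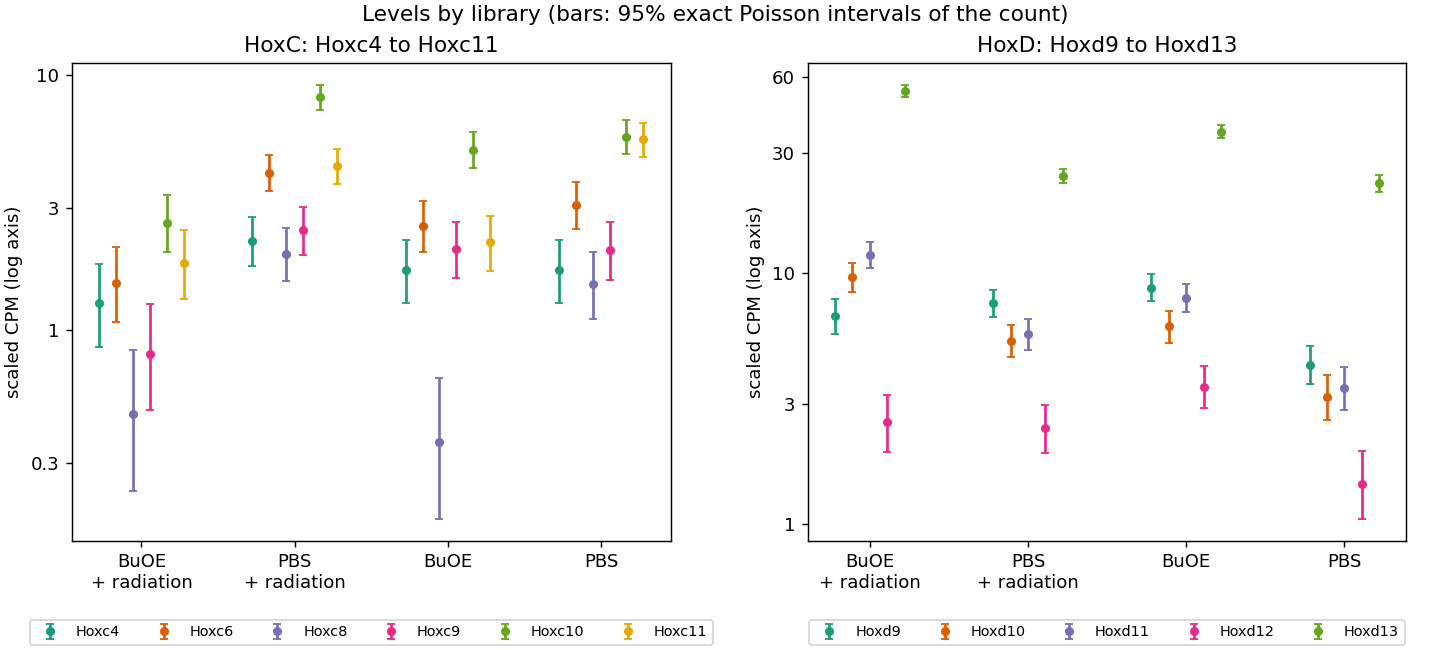
Levels of 6 HoxC genes (left) and of Hoxd9 to Hoxd13 (right) in the 4 libraries, in CPM on a log axis with 95% exact Poisson intervals of the count. All 6 HoxC genes are lower in irradiated BuOE than in irradiated PBS, and Hoxd13 is highest in irradiated BuOE at 52.8 CPM.

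The HoxC sums ranked the libraries as the summed fibroblast markers did, with irradiated PBS highest, then PBS, BuOE and irradiated BuOE. The markers did not move as one: in irradiated BuOE over irradiated PBS 8 of the 10 had ratios below 0, Col1a1 among them at -1.43, while Dcn, at 0.48, and Pdgfra, at 0.30, were highest in irradiated BuOE of the 4 libraries. The summed epithelial markers ranked the libraries in the opposite order, and all 10 had ratios above 0 in that comparison. Smooth muscle markers, all 7 detected, summed to 1199 CPM in irradiated BuOE, 1664 in irradiated PBS, 944 in BuOE and 1462 in PBS. Acta2, Tagln and Actg2 were lower in each BuOE library than in the PBS library it is set against, and the other 4, Myh11, Cnn1, Des and Smtn, were higher, so the list had no common direction and its median log2 ratio was 0.36 in BuOE over PBS and 0.35 in irradiated BuOE over irradiated PBS. All 9 neuronal markers were detected, at 45.9 CPM in irradiated BuOE, 173 in irradiated PBS, 665 in BuOE and 52.9 in PBS. The part of these cell types in the Hox differences was not tested. In irradiated BuOE over irradiated PBS the median log2 ratio was -1.47 over the 6 HoxC genes and -0.67 over the 10 fibroblast markers.

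Radiation ratios of the 2 arms, irradiated BuOE over BuOE and irradiated PBS over PBS, share no library and can be set side by side. The counting interval lay above 0 in both arms for 6 of the 31 genes, which were Hoxa9, Hoxb2, Hoxb4, Hoxb9, Hoxd10 and Hoxd11, and for 13.8% of all genes. It lay below 0 in both arms for 1, Hoxb13, with -0.54 in the BuOE arm and -0.87 in the PBS arm, and for 12% of all genes. It lay below 0 in the BuOE arm and above 0 in the PBS arm for 4, which were Hoxc6, Hoxc10, Hoxd8 and Hoxd9, and the other way for 1, Hoxa11, with 0.47 in the BuOE arm and -0.20 in the PBS arm, where 8.12% and 7.77% of all genes did so, together 15.9%. Hoxc10 had -0.94 in the BuOE arm and 0.51 in the PBS arm. In HoxC, the median ratio of the BuOE arm minus that of the PBS arm was -0.96 over 6 genes, against 0.021 over all genes. A difference of 1 or more on the log2 scale was present in 5 Hox genes towards lower in the BuOE arm and in 0 towards higher, against 8.15% and 3.08% of all genes.

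**Figure D5:**
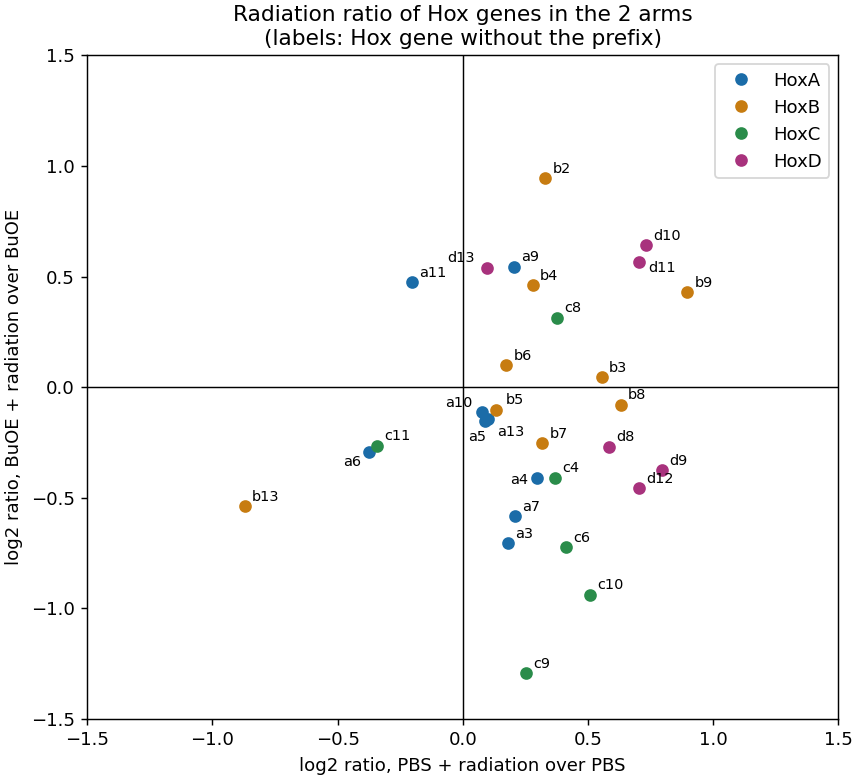
Log2 radiation ratio of Hox genes in the BuOE arm (vertical) against the PBS arm (horizontal), coloured by cluster. Hoxb13 lies below 0 in both arms, and Hoxc6, Hoxc9 and Hoxc10 lie below 0 in the BuOE arm and above 0 in the PBS arm. Genes of the other clusters lie there too, such as Hoxa7, Hoxb8 and Hoxd9, and the PBS-arm interval of Hoxc9 includes 0.

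A model with radiation and BuOE as additive terms over the 4 libraries leaves 1 residual degree of freedom and takes the difference between arms as error. With edgeR's quasi-likelihood test, 0 of 31 Hox genes and 0 of 14366 genes had an adjusted p below 0.05 for either term. At an unadjusted p below 0.05 there were 2 Hox genes for radiation and 7 for BuOE, where 7.13% and 19.6% of all genes were below it. The lowest adjusted p of a Hox gene in edgeR's test was 0.69 for radiation and 0.13 for BuOE. limma-voom called 0 Hox genes for both terms, and 0 of all genes. DESeq2 called 0 Hox genes for radiation, where it called 113 of all 14366 genes. For BuOE, DESeq2 called 1 Hox gene, Hoxd13, with an adjusted p of 0.023, where it called 867 of all 14366 genes.

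Promoters are shown for the genes that lay highest in irradiated BuOE over irradiated PBS, Hoxd13, Hoxd11 and Hoxd10, and for Hoxc4, the HoxC gene with an entry. They come from RefSeq on build GRCm38.p6 and run from 250 bases before to 50 bases after the start of transcription, 5′ to 3′ on the gene's strand. Capitals mark matches on either strand to TATAAA (the core promoter box), TTTATG (the form bound by CDX proteins, which set up Hox expression in the embryo) and AGGTCA (the hexamer of nuclear receptors, also part of retinoic acid response elements). Hoxd11 has 2 listed starts. The Hoxd13 promoter is at chr2:74667975-74668274, those of Hoxd11 at chr2:74679308-74679607 and chr2:74682073-74682372, that of Hoxd10 at chr2:74691641-74691940, and that of Hoxc4 at chr15:103034145-103034444, all on the plus strand.
Hoxd13: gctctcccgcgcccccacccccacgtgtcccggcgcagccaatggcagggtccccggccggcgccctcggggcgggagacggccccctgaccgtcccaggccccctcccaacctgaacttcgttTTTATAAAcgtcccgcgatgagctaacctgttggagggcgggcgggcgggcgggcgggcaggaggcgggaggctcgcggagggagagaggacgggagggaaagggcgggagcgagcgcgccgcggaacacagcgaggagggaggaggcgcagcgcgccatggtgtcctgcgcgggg
Hoxd11, first start: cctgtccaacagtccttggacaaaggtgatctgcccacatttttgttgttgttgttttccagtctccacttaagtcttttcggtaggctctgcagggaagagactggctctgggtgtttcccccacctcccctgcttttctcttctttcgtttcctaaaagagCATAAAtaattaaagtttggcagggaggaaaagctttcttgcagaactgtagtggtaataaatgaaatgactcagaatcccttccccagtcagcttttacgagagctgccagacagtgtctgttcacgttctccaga
Hoxd11, second start: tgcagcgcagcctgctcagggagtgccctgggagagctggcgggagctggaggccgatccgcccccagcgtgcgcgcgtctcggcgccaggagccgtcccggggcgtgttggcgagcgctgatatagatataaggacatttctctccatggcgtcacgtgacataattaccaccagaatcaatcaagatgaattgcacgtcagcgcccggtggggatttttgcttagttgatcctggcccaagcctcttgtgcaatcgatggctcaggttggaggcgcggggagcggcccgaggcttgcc
Hoxd10: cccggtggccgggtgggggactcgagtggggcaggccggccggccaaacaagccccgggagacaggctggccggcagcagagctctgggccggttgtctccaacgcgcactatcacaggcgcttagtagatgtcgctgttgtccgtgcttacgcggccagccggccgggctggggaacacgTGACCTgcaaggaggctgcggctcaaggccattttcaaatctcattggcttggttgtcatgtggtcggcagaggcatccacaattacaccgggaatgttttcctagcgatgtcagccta
Hoxc4: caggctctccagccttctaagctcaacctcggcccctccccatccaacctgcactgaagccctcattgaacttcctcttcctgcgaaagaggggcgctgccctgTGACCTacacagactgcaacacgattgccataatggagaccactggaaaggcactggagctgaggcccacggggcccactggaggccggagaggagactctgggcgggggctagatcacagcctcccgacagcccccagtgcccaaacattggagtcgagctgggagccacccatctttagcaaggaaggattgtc

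Hoxd13 has 37 CpG dinucleotides in these 300 bases and 2 overlapping TATAAA matches, on opposite strands. Hoxd11 has 4 CpGs and a TTTATG match at its first start and 25 CpGs with no match at its second. Hoxd10 has 22 CpGs and Hoxc4 has 9, each with 1 AGGTCA match. The table held 24 promoters for 22 of the 39 Hox genes, with a median of 14.5 CpGs against 7 over all 32851 promoters. TATAAA was present in 16.7% of the Hox promoters and 13.6% of all, TTTATG in 20.8% and 11.9%, and AGGTCA in 29.2% and 16.3%. The 3 HoxD genes shown therefore shared none of these 3 motifs among them, and a match is a description of letters, not a bound site.

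The Hox clusters also encode microRNAs, and miR-196, which lies next to the group 9 genes, is known in mouse to cut Hoxb8 RNA and to bind Hoxc8 and Hoxa7 RNA. Its mature form is given from RefSeq with the seed, bases 2 to 8, in capitals, beside the Hoxc8 sites that match the seed, since Hoxc8 had the lowest ratio in both comparisons of BuOE with PBS. The genes Mir196a-1 and Mir196a-2, on chromosomes 11 and 15, encode the same mature sequence. The Hoxc8 sites come from its GENCODE transcripts, on chromosome 15.
miR-196a-5p: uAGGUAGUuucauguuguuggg
Hoxc8, first site: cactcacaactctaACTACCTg
Hoxc8, second site: taaatctttaacatACTACCTa

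A seed match was present in the 3′ untranslated region of 9 of the 39 Hox genes, or 23.1%, against 7.73% of 21124 protein-coding genes with an annotated region. Hoxa7 had 4 matches and Hoxc8 had 2. Hoxb8 was not among the 9 genes, so the seed match leaves out a known target. Hoxa7, a thoracic gene, had 8.18 CPM in irradiated BuOE, 9.97 in irradiated PBS, 12.3 in BuOE and 8.62 in PBS. It was lower in irradiated BuOE than in irradiated PBS, as Hoxc8 was, and higher in BuOE than in PBS, where Hoxc8 was lower. The part of miR-196 in these levels was not tested. Mature microRNA was not measured here. The hairpin gene Mir196a-1 had 17, 14, 21 and 19 reads in irradiated BuOE, irradiated PBS, BuOE and PBS.

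Hox proteins bind DNA together with PBX, MEIS and PKNOX proteins, the TALE cofactors. Of the 9 cofactor genes, 8 passed the filter, and 0 were 2-fold higher or lower in any of the 4 comparisons. Of all genes, between 2.56% and 8.93% were 2-fold higher and between 1.02% and 5.31% lower, depending on the comparison. Meis2 had 89.0 CPM in irradiated BuOE, 84.8 in irradiated PBS, 64.8 in BuOE and 91.2 in PBS. Pknox2 had the lowest ratio in irradiated BuOE over irradiated PBS, -0.73, with 23.6 CPM in irradiated BuOE and 39.01 in irradiated PBS.

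Embryonic Hox activation depends on CDX factors and retinoic acid. The 3 Cdx genes had at most 1 read in any library. Of 18 retinoic acid pathway genes, 15 passed, and 2 of them were at least 2-fold higher in irradiated PBS over PBS, 1 in irradiated BuOE over BuOE, 3 in BuOE over PBS and 1 in irradiated BuOE over irradiated PBS. Of all genes, 5.55%, 2.56%, 8.93% and 4.47% were higher to that degree, in the same order of comparisons. The gene Aldh1a3, which makes retinoic acid, was 2-fold lower in irradiated BuOE over BuOE, with 147 CPM in irradiated BuOE and 320 in BuOE. Cyp26b1, which degrades retinoic acid, had 119 CPM in irradiated BuOE, 50.01 in irradiated PBS, 44.1 in BuOE and 11.3 in PBS. It was past 2-fold in each of the 4 comparisons, with log2 ratios between 1.25 and 2.14. Rarb, a retinoic acid receptor that retinoic acid itself induces, had 22.8, 16.3, 19.6 and 9.43 CPM in irradiated BuOE, irradiated PBS, BuOE and PBS.

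Hox clusters are held silent by Polycomb proteins and kept active by Trithorax proteins. All 25 Polycomb genes on the list passed, and none was 2-fold higher or lower in irradiated PBS over PBS or in irradiated BuOE over BuOE. Of all genes, 5.55% were higher and 1.02% lower in irradiated PBS over PBS, and 2.56% and 4.68% in irradiated BuOE over BuOE. In BuOE over PBS 1 Polycomb gene was 2-fold higher and 0 were lower, where 8.93% and 4.13% of all genes were. It was Cbx7, a subunit that reads methylated histone H3, with 18.0 CPM in BuOE and 8.76 in PBS and a log2 ratio of 1.03. In irradiated BuOE over irradiated PBS, 2 Polycomb genes were 2-fold higher and 1 was lower, where 4.47% and 5.31% of all genes were. Ezh1, a histone H3 lysine methyltransferase of the complex, had 114 CPM in irradiated BuOE, 54.9 in irradiated PBS, 75.2 in BuOE and 39.01 in PBS. Phf19, which guides that complex to chromatin, had 4.11 CPM in irradiated BuOE and 8.65 in irradiated PBS, a log2 ratio of -1.06. All 14 genes of the Trithorax and demethylase list passed and 0 were 2-fold higher or lower in any comparison, with Kmt2d between 342 and 415 CPM.

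Genes beside the clusters show whether a difference ended at the cluster border. Evx2, the homeobox gene next to Hoxd13, had 6.02 CPM in irradiated BuOE, 1.82 in irradiated PBS, 3.49 in BuOE and 1.35 in PBS, with log2 ratios of 1.69 for irradiated BuOE over irradiated PBS and 1.33 for BuOE over PBS. Lnpk, on the far side of Evx2, had 19.6, 26.7, 18.8 and 27.1 CPM in the same order, and Mtx2, at the Hoxd1 end, had 24.4, 31.4, 25.2 and 27.8 CPM. Evx2 therefore ranked the libraries as Hoxd13 did, and Lnpk and Mtx2 did not. Beside HoxC, Cbx5 had 162 CPM in irradiated BuOE and 296 in irradiated PBS, a log2 ratio of -0.87, and Smug1 had 13.3 and 14.5. Other HoxC neighbours were higher in irradiated BuOE. Atf7 had 118 CPM there and 73.7 in irradiated PBS, a log2 ratio of 0.68, and Calcoco1 had 85.8 and 58.4, a log2 ratio of 0.55. Of 22 neighbouring genes counted, 18 passed the filter. In irradiated BuOE over irradiated PBS 10 of the 18 had ratios above 0 and 8 below. There 1 of them, Evx2, was 2-fold higher and 0 were lower, where 4.47% of all genes were higher and 5.31% lower to that degree.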

How the data were processed

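Raw read counts per gene were used as deposited. The submitters' processing notes list featureCounts, which gives such counts, beside Trim Galore (0.6.4), FastQC, Salmon (1.4.0), edgeR (4.2.2) and build GRCm39, without roles. The settings for strand and for reads that map to several places are not given in the sources used here. Groups were taken from the treatment label, and no sample column was left unused.

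Symbols, exon lengths and exon overlaps were joined by gene ID from GENCODE M21, which is on GRCm38, so no coordinates were taken from it. Of 56748 IDs, 4623 had no symbol, and they held between 0.682% and 1.28% of counts. TMM factors (edgeR 4.0.16, R 4.3.3), between 0.944 and 1.05, came from the 14366 genes averaging 1 CPM or more. Ratio intervals are exact binomial 95% intervals of the 2 counts given the scaled totals. DESeq2 (1.42.0) and limma-voom (limma 3.58.1) were alternatives to edgeR's quasi-likelihood test with Benjamini-Hochberg adjustment. The steps were tested on simulated data.

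The Hox genes, the lists and the tests were chosen with earlier results of these data known. Any Hox gene could be named. In full are the 2 most expressed genes of each cluster, paralog group 13, and, per comparison, the 2 genes at each extreme. Of other lists, the 2 most expressed members and the extreme ratios were eligible, and a few more examples were picked with their values in view. The level of 1 Hox gene and some genes of other lists are not reported here or drawn in the figures, though they stay in sums and counts. Promoters and microRNAs are from RefSeq tables on GRCm38.p6.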

Additional observations from a re-analysis of the deposited data

Results flagged for a closer look

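For 5 Hox genes and 2 summed groups the radiation ratio pointed one way in the BuOE arm and the other way in the PBS arm, with counting intervals that excluded 0 in both. Of all 14366 genes, 15.9% did so, and 5 of the 31 Hox genes, which is near that share. Opposite directions in the arms were thus not particular to Hox genes. The differences below are the log2 ratio of the BuOE arm minus that of the PBS arm. With 1 library per condition the difference itself was not tested. Hoxa11 differed by 0.68, higher in the BuOE arm. The other 4 genes were lower in the BuOE arm: Hoxc10 had a difference of -1.45, Hoxd9 of -1.17, Hoxc6 of -1.14 and Hoxd8 of -0.86. The HoxC sum had a difference of -0.86 and the sum of central Hox genes one of -0.59. Over all genes, 8.15% had a difference of -1 or below and 3.08% one of 1 or above.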

How the results depend on the processing

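No called Hox ratio changed sign. It could not have done so, since another scaling shifts all ratios of a comparison by nearly the same small amount, and a filter leaves a gene's ratio unchanged. Of single-gene values 741 stayed within the spread allowed and 3 did not, and of medians 244 did and 4 did not. Sums moved more: without the member with the highest mean CPM, 14 ratios of summed levels left their counting interval and 18 did not. No paired analysis was possible because each condition has 1 library. Counts of 2-fold Hox genes moved as follows, with the main count in brackets. Without a filter, 1 gene was higher in irradiated PBS over PBS (0), 1 higher (0) and 3 lower (1) in irradiated BuOE over BuOE, and 8 lower in irradiated BuOE over irradiated PBS (5). At a mean of at least 10 CPM, 7 Hox genes and no HoxC gene remained in the comparison, which gave 0 lower in irradiated BuOE over BuOE (1), 1 higher (4) and 0 lower (2) in BuOE over PBS, and 1 higher (2) and 0 lower (5) in irradiated BuOE over irradiated PBS, since fewer genes were tested. The median of all Hox genes was then 0.10 in irradiated PBS over PBS (0.28) and 0.43 in irradiated BuOE over BuOE (-0.15), and that of HoxB, which was Hoxb9 alone, was 0.90 (0.32) and 1.05 in BuOE over PBS (0.38). For the changed filters, the shares of all genes past 2-fold were not computed. Scaling by library size or upper quartile gave 2 lower in irradiated BuOE over BuOE (1) and 1 higher in irradiated BuOE over irradiated PBS (2), and TMM over all genes, an alternative added after seeing the data, gave 1 higher there too. Of all genes, 855 by library size and 755 by upper quartile were lower in irradiated BuOE over BuOE (672). In irradiated BuOE over irradiated PBS, 501 by library size, 563 by upper quartile and 548 by TMM over all genes were higher (642). Library size alone moved the median of all genes to -0.15 in irradiated BuOE over BuOE and -0.10 in irradiated BuOE over irradiated PBS, and the split of all genes in the first of these to 232 higher and 855 lower, against 368 and 672. For the BuOE term, DESeq2 and the fit without a filter each called 1 Hox gene, Hoxd13, against 0. Of all genes, DESeq2 called 867 of 14366 and the fit without a filter 672 of 31783. Counts per kb of exon in place of counts moved 24 shares past their counting intervals, and HoxC then held 3.68% of Hox counts in irradiated BuOE and 10.48% in PBS. Depth limits HoxC most, with 230 reads in irradiated BuOE.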

Other observations

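Other transcription factors that mark body regions also differed between libraries. Of 32 on the list 24 passed the filter, and in BuOE over PBS 6 passed 2-fold upwards and 6 downwards, where 8.93% and 4.13% of all genes did. Pitx1, a hindlimb factor, had 2.12 CPM in irradiated BuOE, 8.65 in irradiated PBS, 4.54 in BuOE and 14.3 in PBS, so both BuOE libraries were below both PBS libraries, as in HoxC. Tbx3, the most abundant, had 280, 207, 245 and 184 CPM in the same order. Foxf1, a factor of gut and urogenital mesenchyme, had 36.6 CPM in irradiated BuOE and 16.1 in BuOE, and 28.8 CPM in irradiated PBS and 9.94 in PBS.

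Of 16 noncoding RNA genes in the Hox clusters, 3 passed the filter. Hoxa11os had 13.8, 10.2, 11.6 and 11.4 CPM in irradiated BuOE, irradiated PBS, BuOE and PBS. Hotairm1 had 1.82, 0.939, 1.64 and 0.741 CPM, and Hoxb3os had 1.78, 1.52, 1.68 and 1.21 CPM. In Hoxa11os irradiated BuOE was the highest, and in Hotairm1 both BuOE libraries were above both PBS libraries.

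The remaining marker lists gave these summed levels in irradiated BuOE, irradiated PBS, BuOE and PBS. Endothelial markers had 654, 697, 593 and 412 CPM, pericyte markers 445, 438, 587 and 366, and Schwann cell markers 151, 178, 250 and 82.6. Macrophage markers had 485, 305, 349 and 337 CPM, adipocyte markers 231, 193, 178 and 567, prostate secretory markers 214, 549, 546 and 776, and urothelial markers 25.8, 30.8, 19.6 and 14.9. The prostate secretory sum follows 1 abundant gene, Sbp, with 13.1, 432, 427 and 749 CPM. Of that list's 6 genes, 5 were 2-fold higher in BuOE over PBS, where 8.93% of all genes were, with a median log2 ratio of 1.65. In irradiated BuOE over irradiated PBS 4 were 2-fold higher and 2 lower, where 4.47% and 5.31% of all genes were, with a median of 1.52. None of the 7 sums ranked the 4 libraries as the HoxC sums did.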
